A study of Ovis aries with 6 samples.

Results

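The matrix metalloproteinases (MMPs), the related ADAM and ADAMTS metalloproteinases and their tissue inhibitors (TIMPs) were examined in sheep skin. Members were the genes whose name in the deposited tables is MMP, ADAM, ADAMTS or TIMP followed by a number and nothing else. There were 56 of them among 28394 genes, comprising 18 MMPs, 15 ADAMs, 19 ADAMTSs and 4 TIMPs. The naming rule uses no measured values, but the members were chosen with earlier results of these data known. RNA-seq had been carried out on 1 skin library from each of 3 Super Merino (SM) ewes, a fine wool breed labelled 128, 30034 and 30126, and 3 Small Tail Han (STH) ewes, a coarse wool breed labelled XW3, XW5 and XW8. The labels give an age of 9 months for all 6 sheep, whereas the methods of the study give a younger age. The sheep were untreated, were kept on the same farm, and were sampled behind the shoulder blade in the same season. Whole skin was used, so fewer cells of a type and less RNA per cell cannot be told apart.

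MMPs are zinc-dependent endopeptidases that cleave collagens, elastin, laminins and other matrix proteins. ADAMs are mostly membrane proteins, several of which release the outer part of growth factors, cytokines and Notch receptors from the cell surface. ADAMTSs are secreted relatives that process procollagens and cleave large proteoglycans. TIMPs bind the active site of these enzymes, and in skin the balance of protease and inhibitor accompanies dermal turnover, wound repair and the growth of follicles down into the dermis.

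Total counts per sheep were between 28870583 and 44645091. The members took between 0.158% and 0.191% of them. The expected skin markers were present, with the summed level of 6 keratinocyte genes between 11542 and 19443 CPM, which are counts scaled by library size with the TMM factors of edgeR, and that of 7 fibroblast genes between 14714 and 21035 CPM. A count of 0 in a library allows up to 3 counts, which is between 0.0672 and 0.104 CPM of the total. Among counts from 1 to 20, between 76.4% and 80.2% were even in each sheep, as when each read of a pair is counted, so small counts stand for fewer fragments. Intervals from such floors cover counting error only.

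Levels of different genes were compared per exon length, as the RPKM deposited by the authors. A few genes held most of the signal. MMP2, a gelatinase made largely by dermal fibroblasts, was the highest with a mean of 83.3 RPKM over the 6 sheep and a range from 63.4 to 107. TIMP1, TIMP2 and TIMP3 followed at mean levels of 70.7, 58.8 and 46.3 RPKM. MMP14, the membrane-bound collagenase that activates MMP2, had 39.3 RPKM. These 5 genes took between 66.1% and 77.3% of the summed RPKM of all members in each sheep. The order among them was not the same in every sheep, since MMP2 was above TIMP1 and TIMP1 above TIMP2 in 5 of 6 sheep, whereas TIMP2 was above TIMP3 and TIMP3 above MMP14 in all 6. The exon length implied by the files was only 0.217 of that of the median gene for TIMP3 and 0.271 for TIMP1, and their RPKM depends on this annotation.

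Next in order per length were ADAMTS1 at 15.8 RPKM, ADAM15 at 15.6, ADAM17 at 11.7, ADAM33 at 9.48 and ADAM10 at 9.31. ADAM33 was above ADAM10 in only 2 of 6 sheep, so these neighbours did not differ in order beyond their spread. A mean RPKM of at least 10 was found for 8 members, from 1 to 10 for 19, and under 1 for 29. The last group held the collagenases MMP1, MMP8 and MMP13 and the gelatinase MMP9.

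**Figure D1:**
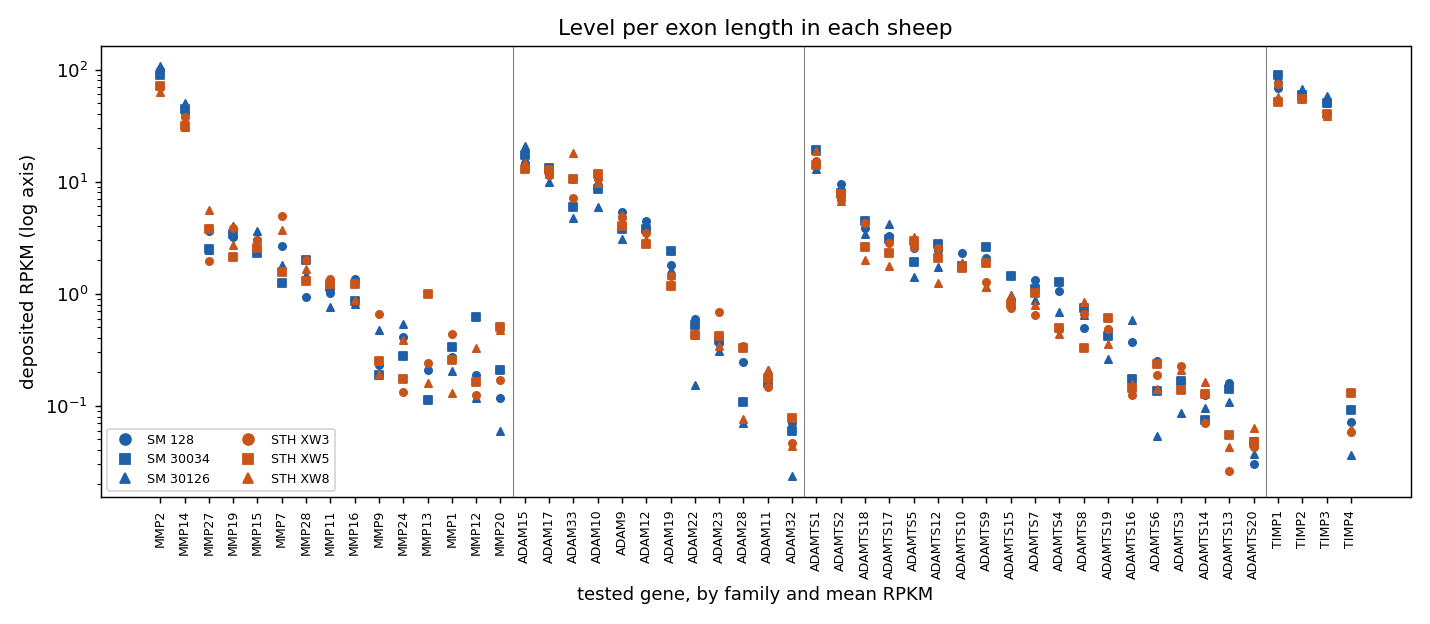
Deposited RPKM (log axis) of the 50 tested members in each of 3 SM (blue) and 3 STH (orange) sheep, grouped by family and ordered by mean RPKM; each symbol is 1 sheep and a value of 0 (MMP13 in SM sheep 30126) is not drawn. MMP2, MMP14, TIMP1, TIMP2 and TIMP3 lie above 30 RPKM in all 6 sheep, and TIMP4 lies below 1.

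The breeds were compared from total counts by edgeR's quasi-likelihood test over 15320 genes, among them 50 of the 56 members, with log2 fold changes given as SM over STH and with their standard error (SE). An edgeR adjusted p is the Benjamini-Hochberg value of this test over all genes tested. At the thresholds used in the study, which are 0.05 for the adjusted p and 1.5-fold for the change, 0 members passed. The same was true of all genes (0%) in this test, the smallest adjusted p being 0.0606 over all genes and 0.243 among the members. The study, whose methods name edgeR but not which of its tests, reported genes past these thresholds in each direction. At an unadjusted p under 0.05 in the quasi-likelihood test, 9 of 50 members (18.0%) were higher in SM sheep, against 7.21% of all genes tested. In the opposite direction there were 3 members (6%), against 10.8% of all genes. The likelihood ratio test of edgeR passed 0 members and 2.30% of all genes, and DESeq2 passed 0 members and 2.87% of all genes. Each of the 3 SM sheep was above each STH sheep for 10 members (20%), against 12.3% of all genes, and the reverse held for 2 members (4%), against 13.3%.

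The families had medians on either side of 0. The median log2 fold change was -0.19 over 15 tested MMPs, -0.14 over 12 ADAMs, 0.21 over 19 ADAMTSs and 0.24 over 4 TIMPs, beside -0.02 over all 50 members and 0.02 over all genes tested. Of the members, 25 were above 0 and 25 below. The MMP median changed sign, to 0.13, without STH sheep XW3. The summed level of the MMPs was 454, 408 and 471 CPM in the SM ewes 128, 30034 and 30126, against 361, 356 and 334 CPM in the STH ewes XW3, XW5 and XW8. This sum was higher in every SM sheep although most single MMPs were not, and MMP2 and MMP14 made up most of it. The TIMP sum was 564, 560.0 and 618 CPM in the same SM sheep against 509.9, 509.6 and 517 CPM in STH ewes. The ADAM and ADAMTS sums overlapped between breeds, with 341 to 434 against 392 to 456 CPM for ADAMs and 309 to 376 against 322 to 337 CPM for ADAMTSs.

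**Figure D2:**
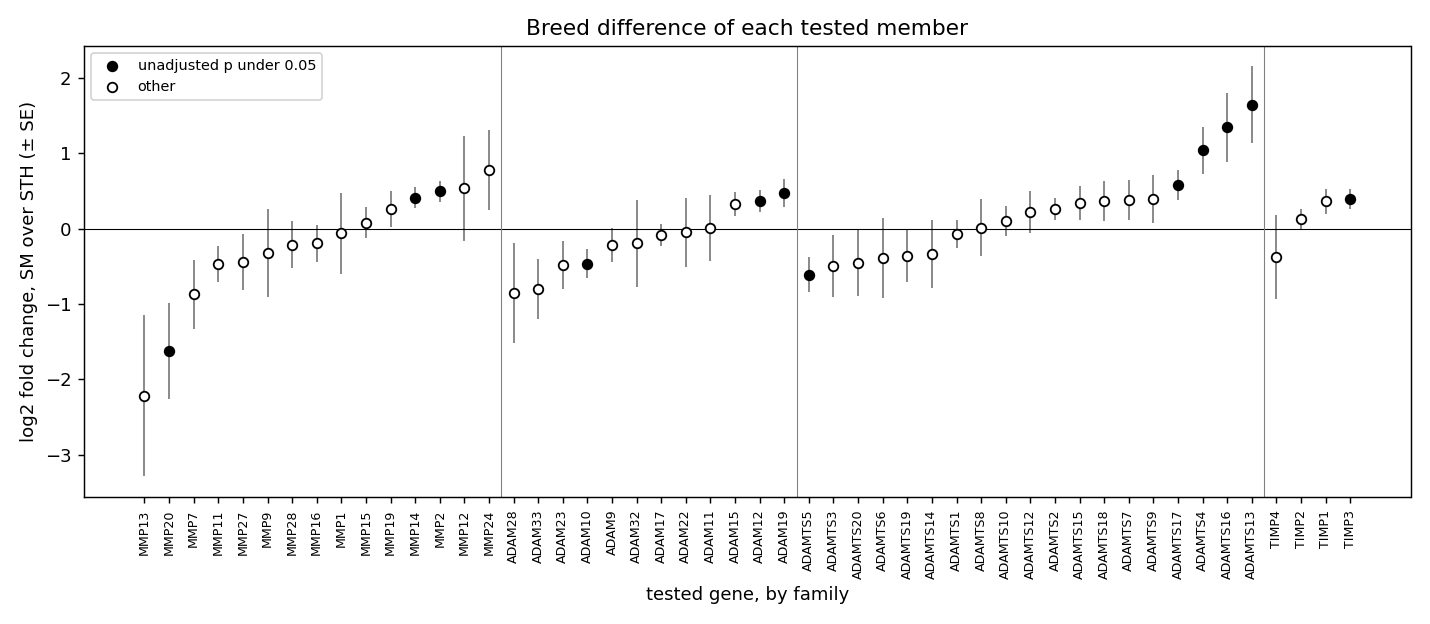
Log2 fold change of SM over STH with its SE for the 50 tested members, ordered within each family; filled points have an unadjusted p under 0.05 in edgeR's quasi-likelihood test. The 9 filled points above 0 are MMP2, MMP14, ADAM12, ADAM19, ADAMTS4, ADAMTS13, ADAMTS16, ADAMTS17 and TIMP3, and the 3 below are MMP20, ADAM10 and ADAMTS5.

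Among the MMPs, the most abundant were higher in SM sheep. In the Oar_v4.0 assembly, to which all positions refer, MMP2 occupies chromosome 14 from 23174874 to 23200713. Its level was 269, 235 and 279.9 CPM in the SM ewes 128, 30034 and 30126, against 185, 198 and 175 CPM in the STH ewes XW3, XW5 and XW8. No SM sheep overlapped the STH sheep. The means were 261 ± 23.6 (SD, n = 3) and 186 ± 11.6 CPM (SD, n = 3). The log2 fold change was 0.49 (SE 0.14), or 1.41-fold, at an edgeR adjusted p of 0.243. MMP2 had the smallest p of all members, and with DESeq2 its adjusted p was 0.0434, but its change was under the fold threshold.

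MMP14, on chromosome 7 from 21584433 to 21592702, had 105, 109 and 123 CPM in SM ewes and 93.3, 81.9 and 79.4 CPM in STH ewes, in the same order of animals as above and throughout. Again the breeds did not overlap. Its log2 fold change was 0.41 (SE 0.14), or 1.33-fold, at an edgeR adjusted p of 0.247. Of the other membrane-type MMPs, MMP15 and MMP16 had log2 fold changes of 0.08 and -0.19, and MMP24, at under 2 CPM in every sheep, had 0.78 (SE 0.53). MMP17 had between 0 and 6 counts per sheep and was not tested.

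MMP9, the other gelatinase, which is made mainly by neutrophils and other leukocytes and by keratinocytes at wounds, was scarce. It had 0.793, 0.620 and 1.55 CPM in SM ewes and 2.20, 0.877 and 0.662 CPM in STH ewes. The breeds overlapped, and the log2 fold change of -0.33 (SE 0.58) became 0.36 without STH sheep XW3. MMP11, a stromelysin-type enzyme of stromal cells, had 3.54 to 5.29 CPM in SM and 6.06 to 6.52 CPM in STH sheep without overlap. For MMP11 the log2 fold change was -0.47 (SE 0.24, edgeR adjusted p = 0.311). MMP19 and MMP28, the latter an epidermal enzyme called epilysin, had log2 fold changes of 0.26 and -0.21, each smaller than its SE or close to it.

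The collagenases, matrilysin, metalloelastase and enamelysin genes form a cluster on chromosome 15. MMP13, MMP12, MMP3, MMP1, MMP8, MMP27, MMP20 and MMP7 lie there in this order between positions 5257188 and 5715226, with gaps of 6.06 to 83.6 kb between neighbours. Several were near the floor of detection. MMP8, the neutrophil collagenase, had a count of 0 in all 6 sheep. MMP1, the interstitial collagenase, had between 12 and 43 counts and a log2 fold change of -0.07 (SE 0.54). MMP3, or stromelysin, had 4, 4 and 8 counts in SM sheep 128, 30034 and 30126 and a count of 0 in each STH sheep. These counts are close to the 3 counts that a 0 allows, so a difference was not detectable at this depth. The identifier of MMP3 carries another symbol, LOC101118895, in the RefSeq table for the later assembly ARS-UI_Ramb_v3.0.

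MMP20, or enamelysin, known for its part in tooth enamel, was the only member of this cluster with an unadjusted p under 0.05. It had 0.364, 0.620 and 0.178 CPM in SM ewes and 0.519, 1.61 and 1.49 CPM in STH ewes. These values rest on 7 to 68 counts, and STH sheep XW3 lay among the SM sheep. Its log2 fold change was -1.62 (SE 0.63, edgeR adjusted p = 0.260). MMP13, the collagenase of bone and healing wounds, had the largest change of the 50 members, a log2 fold change of -2.22 (SE 1.07, edgeR adjusted p = 0.298). It had 13, 10 and 0 counts in SM ewes and 15, 89 and 10 in STH ewes, so that STH sheep XW5 alone stood apart. MMP7, or matrilysin, an enzyme of glandular epithelium, had 1.84 to 4.07 CPM in SM and 2.44 to 7.46 CPM in STH sheep. MMP12, the macrophage metalloelastase, had a log2 fold change of 0.53 (SE 0.70). MMP27 was the most abundant gene of the cluster per length, with 3.31 RPKM, and had 7.03 to 10.9 CPM in SM and 5.77 to 16.9 CPM in STH sheep.

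**Figure D3:**
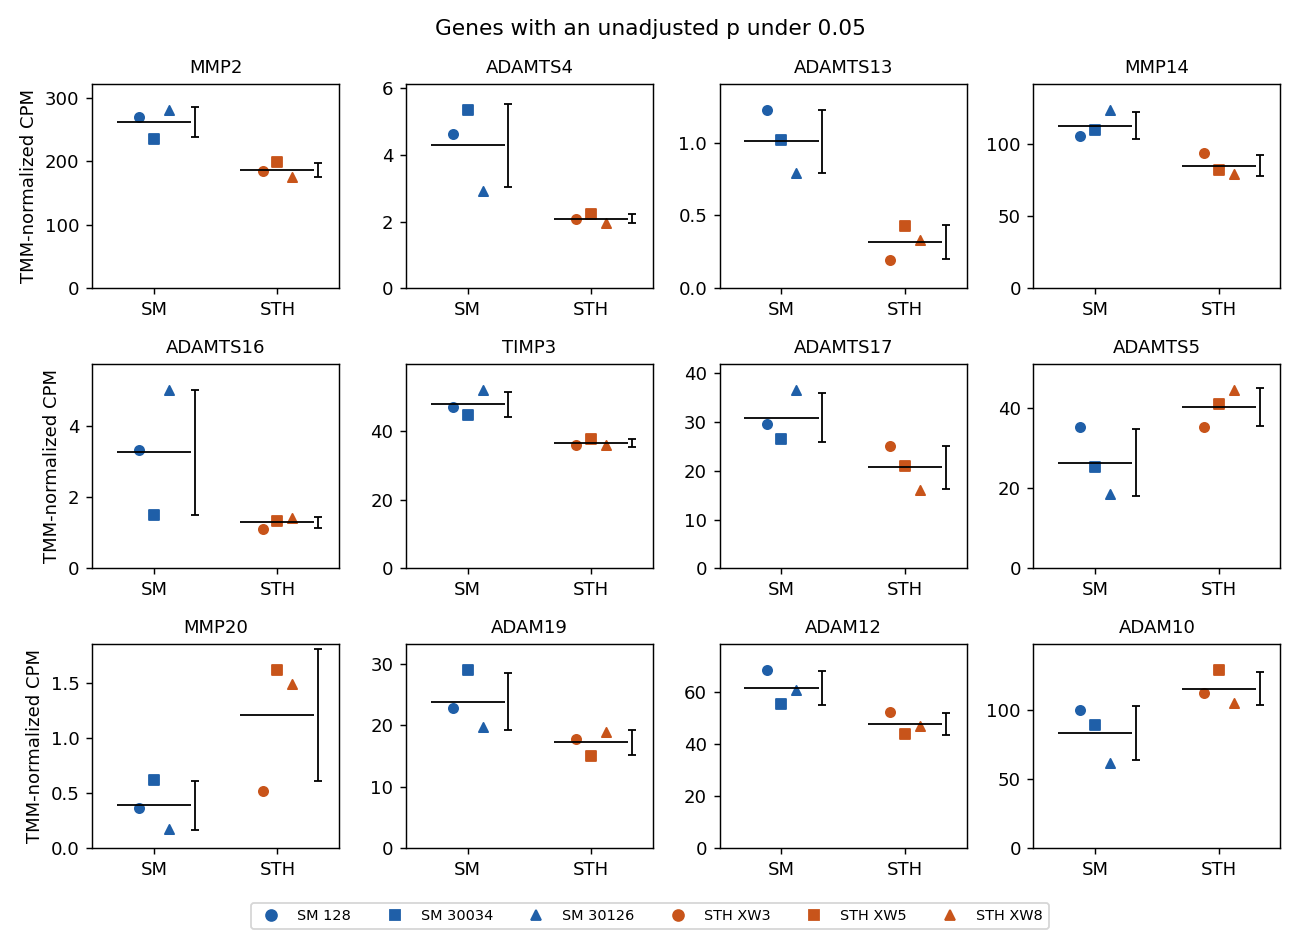
TMM-normalized CPM of the 12 members with an unadjusted p under 0.05, in order of p; each symbol is 1 sheep, the horizontal line is the breed mean and the bar beside it is the SD (n = 3), with each axis starting at 0. The breeds do not overlap for 10 of the 12, and for ADAMTS5 and MMP20 they do.

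Of the 4 TIMPs, those expressed at a high level were each higher on average in SM sheep. TIMP3, a matrix-bound inhibitor that acts on ADAM17 and the ADAMTS aggrecanases as well as on MMPs, lies on chromosome 3 from 176236304 to 176291035. It had 47.1, 44.8 and 52.0 CPM in SM ewes and 36.1, 37.9 and 35.9 CPM in STH ewes, without overlap. This gave a log2 fold change of 0.39 (SE 0.13, edgeR adjusted p = 0.248). After each sheep's trend of counts on exon length was removed, it was 0.16, and the unadjusted p was 0.284.

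TIMP1, on the X chromosome, a soluble inhibitor induced at sites of inflammation, had 79.1, 98.3 and 94.2 CPM in SM ewes and 84.0, 61.0 and 66.2 CPM in STH ewes. STH sheep XW3 overlapped the SM sheep. The difference on the log2 scale was 0.36 (SE 0.17, edgeR adjusted p = 0.285), and with the length trend removed it was 0.17. TIMP2, on chromosome 11, which both inhibits MMP2 and takes part in its activation by MMP14, had 437, 416 and 471 CPM in SM ewes and 389, 409 and 415 CPM in STH ewes. The breeds did not overlap, though XW8 and SM sheep 30034 were nearly level. The TIMP2 log2 fold change of 0.13 (SE 0.13, edgeR adjusted p = 0.587) was no larger than its error, and was 0.26 with the length trend removed. TIMP4 was scarce, with 0.727, 0.886 and 0.357 CPM in SM ewes and 0.584, 1.33 and 0.629 CPM in STH ewes. The breeds overlapped, and the TIMP4 log2 fold change of -0.38 (SE 0.55) became 0.12 without XW5.

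TIMP1, TIMP3 and TIMP4 each overlap a synapsin gene on the opposite strand, namely SYN1, SYN3 and SYN2. The library kit is not stated to keep strand. SYN3 had 21 to 34 counts per sheep against 1086 to 2041 for TIMP3, and SYN1 had 50 to 154 against 1999 to 4440 for TIMP1. For TIMP4 the partner was the more abundant, with 60 to 477 counts for SYN2 against 14 to 56. SYN2 had a log2 fold change of 1.33 (SE 0.36, edgeR adjusted p = 0.240), opposite in sign to that of TIMP4. TIMP1 also overlaps ARAF by 955 bases on the same strand. How reads shared by these genes were divided was not tested.

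Ratios of protease to inhibitor transcript were taken within each sheep per exon length, so that library scaling cancels. The log2 ratio of MMP2 to TIMP2 was 0.72, 0.59 and 0.67 in the SM ewes 128, 30034 and 30126, against 0.34, 0.37 and 0.17 in the STH ewes XW3, XW5 and XW8. All SM sheep were above all STH sheep, with means of 0.66 ± 0.06 (SD, n = 3) and 0.30 ± 0.11 (SD, n = 3). For MMP14 to TIMP2 the means were -0.46 ± 0.07 and -0.74 ± 0.17 (SD, n = 3 each), and SM sheep 128 at -0.54 was next to XW3 at -0.55. TIMP2 has a longer annotated exon length, at 1.71 of the median gene, than MMP2 at 0.639 and MMP14 at 0.598. A trend of counts on length does not cancel in these ratios. With that trend removed, the log2 fold changes were 0.42 for MMP2, 0.32 for MMP14 and 0.26 for TIMP2. Before removal they were 0.49, 0.41 and 0.13, so the genes of each pair lay further apart.

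The ratios to TIMP3 ran the other way. For ADAM10 to TIMP3 the mean log2 ratio of SM ewes was -2.76 ± 0.46 (SD, n = 3) and that of STH ewes was -1.89 ± 0.11 (SD, n = 3). For ADAM17 to TIMP3 it was -2.21 ± 0.30 and -1.73 ± 0.07 (SD, n = 3 each), and for ADAMTS5 to TIMP3 -4.80 ± 0.54 and -3.76 ± 0.17 (SD, n = 3 each). In these 3 pairs every STH sheep was above every SM sheep, and SM sheep 30126 had the lowest ratio. TIMP3 has a short and the proteases a long annotated exon length, and a trend of counts on length does not cancel in such a ratio either. With that trend removed, the log2 fold changes were 0.16 for TIMP3, 0.0004 for ADAM17, -0.28 for ADAM10 and -0.40 for ADAMTS5. Before removal they were 0.39, -0.09, -0.47 and -0.61, so each protease lay further from TIMP3. MMP9 to TIMP1 overlapped between breeds. No test was made of these ratios, since 3 sheep against 3 cannot give an exact two-sided permutation p below 0.1.

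**Figure D4:**
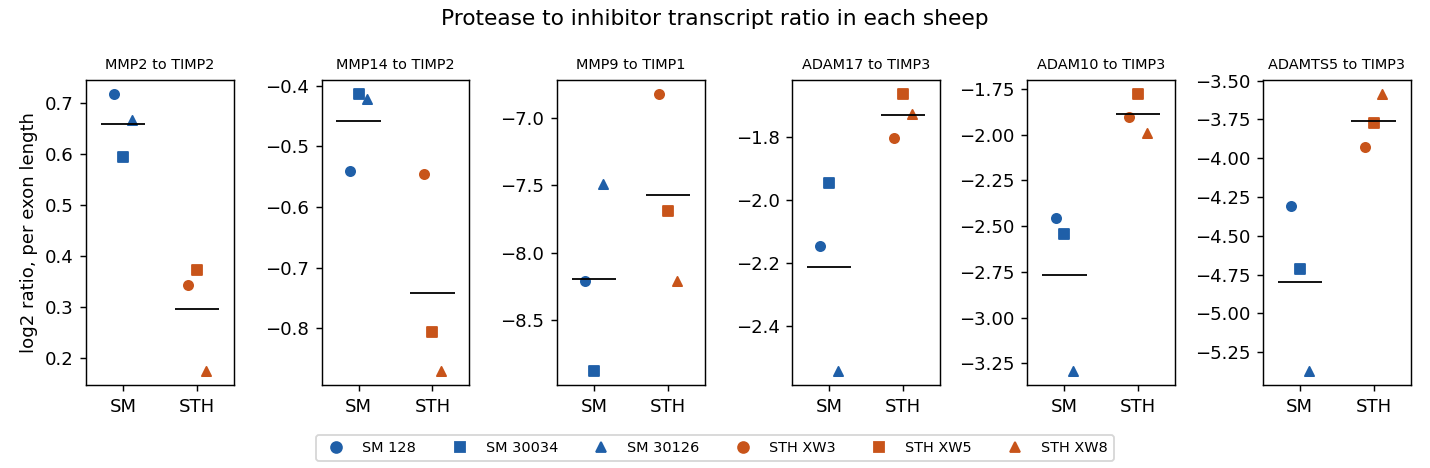
Log2 ratio of protease to inhibitor transcript per exon length in each sheep for 6 pairs, with the breed mean as a line; each panel has its own axis, which does not start at 0. SM sheep are above STH sheep for MMP2 and MMP14 to TIMP2, below them for ADAM17, ADAM10 and ADAMTS5 to TIMP3, and overlap them for MMP9 to TIMP1.

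In the ADAMTS family, the largest, 4 of 19 members had an unadjusted p under 0.05 in favour of SM sheep, and 1 in favour of STH sheep. For MMPs, ADAMs and TIMPs the counts in favour of SM sheep were 2 of 15, 2 of 12 and 1 of 4. In favour of STH sheep they were 1, 1 and 0. Over all genes tested, 7.21% had such a p in favour of SM and 10.8% in favour of STH sheep. Among the 7 proteoglycanases the aggrecanases ADAMTS4 and ADAMTS5, which cleave aggrecan and versican, went in opposite directions. ADAMTS4, on chromosome 1 from 110596680 to 110604036, had 4.63, 5.34 and 2.90 CPM in SM ewes and 2.08, 2.23 and 1.95 CPM in STH ewes, without overlap. The log2 fold change was 1.04 (SE 0.31), or 2.05-fold, at an edgeR adjusted p of 0.247.

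ADAMTS5, on chromosome 1 from 127446335 to 127502805, was more abundant. It had 35.3, 25.3 and 18.7 CPM in SM ewes and 35.3, 41.2 and 44.5 CPM in STH ewes. SM sheep 128 and STH sheep XW3 were level, and the other SM sheep were below all STH sheep. Its log2 fold change was -0.61 (SE 0.23, edgeR adjusted p = 0.256), and -0.40 with the length trend removed. Without SM sheep 128 it was -0.87 at an edgeR adjusted p of 0.0347, and without SM sheep 30126 it was -0.40. In the fit without SM sheep 128, 1163 of the 15320 genes tested passed both thresholds.

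ADAMTS1 starts 99.9 kb beyond the end of ADAMTS5 and cleaves versican, a proteoglycan of the follicle and dermis. It was the highest ADAMTS, with 107, 134 and 91.7 CPM in SM ewes and 108, 105 and 139 CPM in STH ewes. The breeds overlapped, and the log2 fold change was -0.08 (SE 0.18), with the opposite sign when the length trend was removed. Another adjacent pair, ADAMTS8 and ADAMTS15 on chromosome 21, had log2 fold changes of 0.01 and 0.34. ADAMTS9 had 0.39 and ADAMTS20 -0.45, each with an unadjusted p over 0.05.

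Among the remaining ADAMTSs, the members that differed most were of low or moderate level. ADAMTS13, which cleaves von Willebrand factor and is made mainly in the liver, had 1.22, 1.02 and 0.790 CPM in SM ewes and 0.195, 0.426 and 0.331 CPM in STH ewes, from 6 to 46 counts. This gave a log2 fold change of 1.64 (SE 0.51), or 3.12-fold, at an edgeR adjusted p of 0.247. ADAMTS16 had 3.31, 1.48 and 4.99 CPM in SM ewes and 1.10, 1.33 and 1.42 CPM in STH ewes. SM sheep 30034 was barely above the STH sheep. The difference on the log2 scale was 1.34 (SE 0.46, edgeR adjusted p = 0.248), and 0.90 without SM sheep 30126.

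ADAMTS17, which is linked to fibrillin microfibrils and whose loss in humans causes a syndrome with short stature, had 29.6, 26.6 and 36.5 CPM in SM ewes and 25.0, 21.0 and 16.1 CPM in STH ewes. The log2 fold change was 0.58 (SE 0.20, edgeR adjusted p = 0.252). Of the procollagen N-propeptidases, which trim fibrillar procollagens before fibrils form, ADAMTS2 was the abundant member. It had 81.2, 64.9 and 74.0 CPM in SM ewes and 57.4, 67.5 and 58.5 CPM in STH ewes, with overlap. For ADAMTS2 the log2 fold change was 0.26 (SE 0.15), whereas ADAMTS3 and ADAMTS14, at about 2 CPM or less in every sheep, had -0.49 and -0.34. ADAMTS7 and ADAMTS12, which cleave cartilage oligomeric matrix protein, had 0.38 and 0.21. ADAMTS10, which like ADAMTS17 is linked to fibrillin, had 0.10 (SE 0.20), and ADAMTS6, ADAMTS18 and ADAMTS19 had -0.39, 0.36 and -0.37, all 4 with an unadjusted p over 0.05.

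Of the ADAMs, 8 with a protease site, 3 without and 1 of reproductive tissue were tested. ADAM10, the sheddase of Notch receptors and cadherins, lies on chromosome 7 from 48508280 to 48644316. It had 99.4, 88.9 and 61.5 CPM in SM ewes and 112, 128 and 105 CPM in STH ewes, without overlap. For ADAM10 the log2 fold change was -0.47 (SE 0.19), or 1.38-fold higher in STH sheep, at an edgeR adjusted p of 0.267. With the length trend removed it was -0.28, and without SM sheep 30126 it was -0.27.

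ADAM17, the sheddase of tumour necrosis factor and of ligands of the epidermal growth factor receptor, had 70.2, 76.7 and 58.9 CPM in SM ewes and 68.1, 79.0 and 71.7 CPM in STH ewes. The breeds overlapped, with a log2 fold change of -0.09 (SE 0.15). ADAM12 and ADAM19, the meltrins, which are expressed in mesenchyme, were higher in all SM sheep. ADAM12 had 68.3, 55.4 and 60.6 CPM against 52.4, 43.9 and 47.1 CPM, a log2 fold change of 0.36 (SE 0.15, edgeR adjusted p = 0.262), and 0.62 with the length trend removed. ADAM19 had 22.8, 28.9 and 19.8 CPM against 17.8, 14.9 and 18.9 CPM, a log2 fold change of 0.47 (SE 0.19, edgeR adjusted p = 0.261). It was 0.30 without SM sheep 30034.

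ADAM33, a gene of mesenchymal cells and smooth muscle, had the widest spread over the 6 sheep, relative to its level, among the 10 members highest per length. It had 58.4, 31.5 and 25.4 CPM in SM ewes and 38.6, 59.7 and 102 CPM in STH ewes. The breeds overlapped, and the log2 fold change of -0.80 (SE 0.39, edgeR adjusted p = 0.305) ranged from -1.23 without SM sheep 128 to -0.36 without STH sheep XW8. ADAM15 had 63.5, 71.2 and 87.7 CPM against 56.1, 57.0 and 65.2 CPM, with a log2 fold change of 0.32 (SE 0.16), which was 0.19 without SM sheep 30126. ADAM9 had -0.22 (SE 0.22) and ADAM28 -0.86 (SE 0.66).

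The ADAMs without a protease site, which serve in adhesion and at synapses, were scarce. ADAM11, ADAM22 and ADAM23 had log2 fold changes of 0.01, -0.05 and -0.48, each with an unadjusted p over 0.05. Of the reproductive ADAMs, ADAM32 was measured at 10 to 38 counts per sheep, ADAM2 had 1 count in 1 sheep, and ADAM7 and ADAM29 had a count of 0 in all 6.

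Other genes that act with these enzymes were counted in lists. Activators and inducers, among them FURIN, PLAU and BSG, had 8 tested genes. All had a log2 fold change above 0 (median 0.25, from 0.06 to 0.36), and 0 had an unadjusted p under 0.05. Over all genes tested, 7873 of 15320 were above 0, and 7.21% and 10.8% had such a p in favour of SM and STH sheep. Other inhibitors and clearance receptors had 0 of 5 with such a p, plasminogen activator inhibitors 0 of 2, ADAMTS-like proteins 0 of 6 and the large proteoglycans 0 of 5. Their medians were 0.22, 0.16, 0.08 and 0.19. Of 9 partners and targets of ADAM10, 0 reached that p, with a median of 0.16. Of 9 regulators and ligands of ADAM17, 1 did, TGFA, a growth factor ligand of the epidermal growth factor receptor. TGFA was at 26.4 to 37.0 CPM in SM ewes and at 43.4 to 55.3 CPM in STH ewes, without overlap, which is -0.59 on the log2 scale (SE 0.18, edgeR adjusted p = 0.247). PCOLCE2, an enhancer of procollagen C-proteinase, was the only 1 of 5 genes in its list, with a log2 fold change of -0.76 (SE 0.25, edgeR adjusted p = 0.247). In the list of meprins and other metzincins, the 2 tested genes were PAPPA and PAPPA2, and no meprin was tested. Of these 2, 0 had an unadjusted p under 0.05. PAPPA2 was at 0.357 to 6.91 CPM in SM ewes and at 9.01 to 11.2 CPM in STH ewes, without overlap. Its log2 fold change was -1.91 (SE 0.89, edgeR adjusted p = 0.288), and that of PAPPA was -0.13 (SE 0.29), with overlap.

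Markers of several cell types also differed between the breeds, and their part in the values above was not tested. The 4 smooth muscle genes MYH11, DES, CNN1 and ACTA2 each had an unadjusted p under 0.05 and were higher in STH sheep, with summed levels of 782 to 892 CPM in SM and 1380.2 to 1759.6 CPM in STH sheep. The 4 endothelial genes were above 0, with a median log2 fold change of 0.53, VWF and CDH5 among them with such a p, and summed levels of 494 to 633 CPM in SM and 312 to 516 CPM in STH sheep. Of 7 fibroblast genes, PDGFRB was higher in SM sheep (0.48) and DCN higher in STH sheep (-0.35), with a median of -0.16 and overlapping sums. All 6 keratinocyte genes were below 0, and KRT1, KRT10 and DSG1 had such a p. The lymphocyte median was 0.58 over 4 genes, with such a p for the T cell genes CD3E (0.61) and CD3D (0.80), and the macrophage median was 0.01 over 4, with no gene at such a p. The 4 neutrophil and mast cell genes had a median of -0.05. CSF3R, a neutrophil receptor, was higher in SM sheep (1.82) and CPA3, a mast cell protease, higher in STH sheep (-1.45). Both were without overlap and had such a p. In the same list CXCR2 (0.15, SE 0.38) and KIT (-0.26, SE 0.28) overlapped between breeds. The adipocyte median was -0.88 over 3 genes, with such a p for FABP4 (-1.84). ADIPOQ (-0.88, SE 1.00) and PLIN1 (0.14, SE 0.47) overlapped between breeds. The skeletal muscle median was -1.12 over 2, with such a p for ACTA1 (-2.18), whereas CKM (-0.07, SE 0.19) overlapped.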

How the data were processed

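A paired-end TruSeq library was made from the skin of each of 3 SM and 3 STH ewes. With CLC Genomics Workbench and the Oar_v4.0 assembly, the authors produced total counts per gene, deposited as whole numbers without normalization or pooling. The authors also deposited RPKM, used here for levels per length. The TPM deposited by the authors is the RPKM rescaled to a common sum, and a score deposited by the authors under the name CPM is a count divided by a library factor; neither was used. Total counts ranged from 28870583 to 44645091, and the study lists fragments by class (exonic, exon junction, intronic, intergenic and non-specific). Which of these classes enter the total counts is not given in the sources used here.

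The 15320 genes that reached 10 counts in 3 or more sheep were normalized by TMM and tested by the quasi-likelihood test of edgeR 4.0.16 in R 4.3.3 with breed as the only term and Benjamini-Hochberg adjustment over all of them. The standard error is the log2 fold change divided by the square root of F. Exon length was taken as the ratio of count to RPKM. Chromosome numbers were assigned from 21630 identifiers matched in the RefSeq table, and positions are those of the files. The members and lists were chosen with earlier results of these data known. Values of every sheep were reported for 20 members, namely those with an unadjusted p under 0.05, the 10 highest per length, all TIMPs and a short list of well-known proteases. Other members were described more briefly, and of the other lists genes with an unadjusted p under 0.05 were named, up to 4 a list. FURIN, PLAU, BSG, PAPPA, PAPPA2, CXCR2, KIT, ADIPOQ, PLIN1, CKM, MMP11, ADAMTS2, MMP13 and further members outside this rule were named after their values were seen. Alternatives were the likelihood ratio test, DESeq2 1.42.0, the newer dispersion estimate of edgeR, RLE and upper quartile factors, other count filters, removal of a loess trend on length (span 0.5), and each sheep left out. The tests were tried on simulated counts.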

Additional observations from a re-analysis of the deposited data

How the results depend on the processing

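The members at an unadjusted p under 0.05 numbered 9 higher in SM sheep in the quasi-likelihood test and stayed within 1.5 times of that in each alternative. Those higher in STH sheep were 3, but 5 with the likelihood ratio test and 5 with DESeq2, and 0 to 7 as each sheep was left out. The count was 0 without SM sheep 30126 and without STH sheep XW8, 1 without SM sheep 30034 or STH sheep XW5, and 7 without SM sheep 128. The number of all 15320 genes at such a p and higher in STH sheep, 1658 in the main fit, also moved. Leaving out SM sheep 128, 30034 or 30126 gave 2682, 930 and 988 such genes. Leaving out STH sheep XW3, XW5 or XW8 gave 1404, 661 and 1177. Members past both thresholds were 0 in each alternative on all 6 sheep, and 0 to 1 as each sheep was left out, the 1 being ADAMTS5 without SM sheep 128. In that fit 1163 of the 15320 genes tested passed both thresholds, against 3 or fewer without any other sheep. Over all genes, the split at an unadjusted p under 0.05 was 1104 in favour of SM and 1658 in favour of STH, and 1437 and 1402 with upper quartile factors, where the members had 10 and 2. The median log2 fold change ranged from -0.23 to 0.13 for the MMPs and from -0.45 to -0.0064 for the ADAMs as each sheep was left out. That of the TIMPs was 0.35 with a mean count of at least 50, where TIMP4 is not tested, and 0.17 with the length trend removed. Of the 20 members with values for every sheep, 16 kept their direction in each alternative. ADAMTS1 changed to 0.044 with the length trend removed, and ranged from -0.25 to 0.061 as each sheep was left out. ADAM17 changed to 0.0004 and ranged from -0.18 to 0.025 in the same fits. TIMP4 ranged from -0.66 to 0.12 and MMP9 from -0.80 to 0.36 as each sheep was left out. Apart from the fewer sheep or genes in these fits, the cause was not tested. No paired analysis was possible because the sheep labels link no SM sheep to an STH sheep. ADAM32 and MMP1 had between 10 and 43 counts per sheep and SEs of 0.57 and 0.54, so that small differences are not detectable there.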

Other observations

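Single sheep took unequal shares of the extremes. SM sheep 30126 had the lowest level of the 6 sheep for 20 of the 50 tested members (40.0%), against 31.5% of all genes tested, and the highest for 10 (20%), against 33.4%. STH sheep XW5 had the highest level for 8 members (16%), against 23.3% of all genes, and the lowest for 5 (10%), against 21.5%.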
